A study of Mus musculus with 9 samples.

Results

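NF-kB is a family of dimeric transcription factors, and 10 mouse genes of this system were described: the subunit genes Rela, Nfkb1, Nfkb2 and Relb, and the targets Nfkbia, Tnfaip3, Birc3, Tnfaip2, Saa3 and Lcn2. They were taken by symbol out of 55450 genes listed for each library. Each symbol had 1 row in every library, and all 10 genes passed the filter for testing. The study measured RNA in primary mouse articular chondrocytes, the cells of joint cartilage, in 3 groups of 3 libraries. The bleomycin plus ST045849 group received bleomycin, a DNA-breaking glycopeptide, at 50 µg/mL for 24 h and was then cultured for 5 days with ST045849 at 20 µM. ST045849 is a small-molecule inhibitor of the O-GlcNAc transferase, which attaches N-acetylglucosamine to intracellular proteins. The bleomycin group received the same bleomycin exposure and then DMSO, the solvent, for 5 days. The vehicle group received PBS in place of bleomycin and then DMSO for 5 days. All 3 groups were kept at 3% oxygen with 10% serum, and before treatment the cells were exposed to 4 U/mL of hyaluronidase for 4 h. Medium was renewed every 48 h. The labels give no strain, sex, age or number of animals, and cells given ST045849 without bleomycin were not analysed here. The comparisons ask what bleomycin did to these genes in the chondrocytes, and what ST045849 did after bleomycin.

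In resting cells NF-kB dimers are held in the cytoplasm by IkB proteins. Signals from cytokine receptors, and also from DNA damage, activate the IKK kinases, which mark IkB for destruction and release the dimers to the nucleus. The dimers induce their own inhibitors, so that transcripts of IkBα and A20 are commonly used as a record of recent activity. In chondrocytes the pathway is known for inducing cytokines, acute-phase proteins and matrix-degrading enzymes during joint inflammation.

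The upstream sequences of 3 targets are shown because the results below turn on Tnfaip3 and Saa3, and because Nfkbia is the classical feedback gene. They come from RefSeq (GRCm38.p6), which matched 8 of the 10 genes with 11 start sites; Nfkb1 and Relb were not matched. Each window was searched on both strands for the kB consensus, a motif of 10 letters, from 250 bases before to 50 bases after the start site. Capitals mark matches to the consensus, and stretches that GENCODE annotates as UTR were left out. The Tnfaip3 stretch is chr10:19015411-19015547, the Nfkbia stretch is chr12:55492648-55492897 and the Saa3 stretch is chr7:46715701-46715926. All are on the minus strand and read 5′ to 3′ toward the gene.
Tnfaip3: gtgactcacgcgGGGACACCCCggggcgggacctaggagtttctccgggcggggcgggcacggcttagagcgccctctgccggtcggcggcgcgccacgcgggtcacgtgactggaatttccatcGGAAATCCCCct
Nfkbia: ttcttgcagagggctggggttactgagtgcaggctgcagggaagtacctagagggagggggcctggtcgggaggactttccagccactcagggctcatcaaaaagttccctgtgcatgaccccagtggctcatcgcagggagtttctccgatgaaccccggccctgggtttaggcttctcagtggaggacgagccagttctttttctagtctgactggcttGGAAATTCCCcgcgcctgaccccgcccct
Saa3: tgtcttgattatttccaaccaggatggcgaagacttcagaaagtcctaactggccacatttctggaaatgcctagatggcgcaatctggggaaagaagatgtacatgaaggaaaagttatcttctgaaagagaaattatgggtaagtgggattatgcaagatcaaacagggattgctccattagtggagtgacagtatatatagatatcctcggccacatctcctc

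The consensus matched in 3 of the 8 genes (Nfkbia, Nfkb2 and Tnfaip3), and in 5.14% of the 27025 genes with a RefSeq window of the same length. In Tnfaip3 the matches began at -125 and -12, counted from the start site, and in Nfkbia at -29. At the first Nfkb2 start site the overlapping matches GGGAATTCCC and GGAATTCCCC began at -39 and -38, and GGGGCTTTCC began at -11. The looser form GGGNNNNNCC, which includes every consensus match, was found in 7 of the 8 genes, against 53.5% of all genes. Saa3 had no match to either form in its 300 bases. These letters describe the windows, and they are neither a measured site nor a cause.

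FPKM counts fragments scaled by exon length and by library size, so levels can be set side by side between genes. Steps between low FPKM values put the library depths between 31300000 and 35900000 fragments. By that estimate the fewest fragments behind any value of the 10 genes were about 37, for Saa3 in vehicle library 3. The 9 chondrocyte markers were tested in full and summed to 15520 to 22500 FPKM with bleomycin plus ST045849, 19020 to 26470 with bleomycin and 25780 to 35020 with vehicle. The main cartilage collagen gene Col2a1 was among the most abundant transcripts, at 12440 to 18520 FPKM with bleomycin and 16340 to 24070 FPKM with vehicle. The neutrophil and endothelial lists had 0 of 7 and 0 of 4 members tested, and their summed levels are given with those of the other cell types. In bulk RNA, a change in the number of cells of a type and a change in RNA per cell cannot be told apart. The labels do not say whether libraries of a group are separate cultures, so p-values measure the spread between these libraries.

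With bleomycin, 2 of the 10 genes rose against vehicle, the acute-phase gene Saa3 and the feedback inhibitor gene Tnfaip3, and none fell. Both entered the test through bleomycin-treated libraries, so the counts of called genes against vehicle are given as a description. The transcription-factor genes themselves and Nfkbia did not pass. Among all 12441 tested genes, 4.88% passed in this comparison and 4.2% passed as higher (limma, adjusted p under 0.05). The libraries of the 2 groups did not overlap for 5 of the 10 genes, all higher with bleomycin (Rela, Tnfaip3, Tnfaip2, Birc3 and Saa3), a pattern found as higher in 21.4% of all genes. The median log2 change of the 10 genes was 0.38, and that of all tested genes was 0.099. All genes called were 523 higher and 84 lower, and 351 higher and 141 lower under median-of-ratios scaling, which put the median of all genes at -0.023. Saa3 and Tnfaip3 were called there too, with changes of 1.38 and 1.21. Without any 1 bleomycin or vehicle library the calls over all genes numbered 184 to 334 in place of 607, and the calls among the 10 genes stayed at 2.

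After bleomycin, ST045849 moved none of the 10 genes past the threshold against bleomycin alone, and it moved none of the 12441 genes, a percent called of 0. At an unadjusted p under 0.05 there were 2 of the 10 genes (Saa3, higher, and Birc3, lower) and 22.5% of all genes. The groups did not overlap for 3 of the 10 genes, with Saa3 and Nfkb2 higher and Birc3 lower, against 25.2% of all genes in either direction. The median log2 change was 0.12 for the 10 genes and 0.062 for all genes. Libraries with the same replicate number deviated together in these 2 groups, and a fit of them alone with the number as a block called 19.3% of all genes and 1 of the 10, Saa3. That pairing was found in these same data and is not stated by the labels. Unequal numbers correlated at up to 0.568 between other groups, so the blocked calls are given as a description. Without ST045849 library 1, 17.9% of all genes and 2 of the 10, Saa3 and Birc3, passed.

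With bleomycin plus ST045849 against vehicle, Saa3 and Tnfaip3 rose again, 2 of 10, and 9.85% of all genes passed (8.11% as higher). The groups lay apart as higher for 4 genes (Nfkbia, Rela, Tnfaip3 and Saa3), against 21% of all genes, and as lower for Nfkb1, against 6.66%. The median log2 change was 0.51 for the 10 genes and 0.19 for all genes. All genes called were 1009 higher and 216 lower, against 495 and 368 under median-of-ratios scaling, with a median of all genes of -0.0039, and 493 and 217 as TPM. The 1225 calls over all genes became 3060 without ST045849 library 1, 623 and 611 without its libraries 2 and 3, 1883 without vehicle library 1, and 286 and 351 without vehicle libraries 2 and 3. This comparison shares its vehicle libraries with the first and its ST045849 libraries with the second, so the 3 are not independent of one another.

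**Figure D1:**
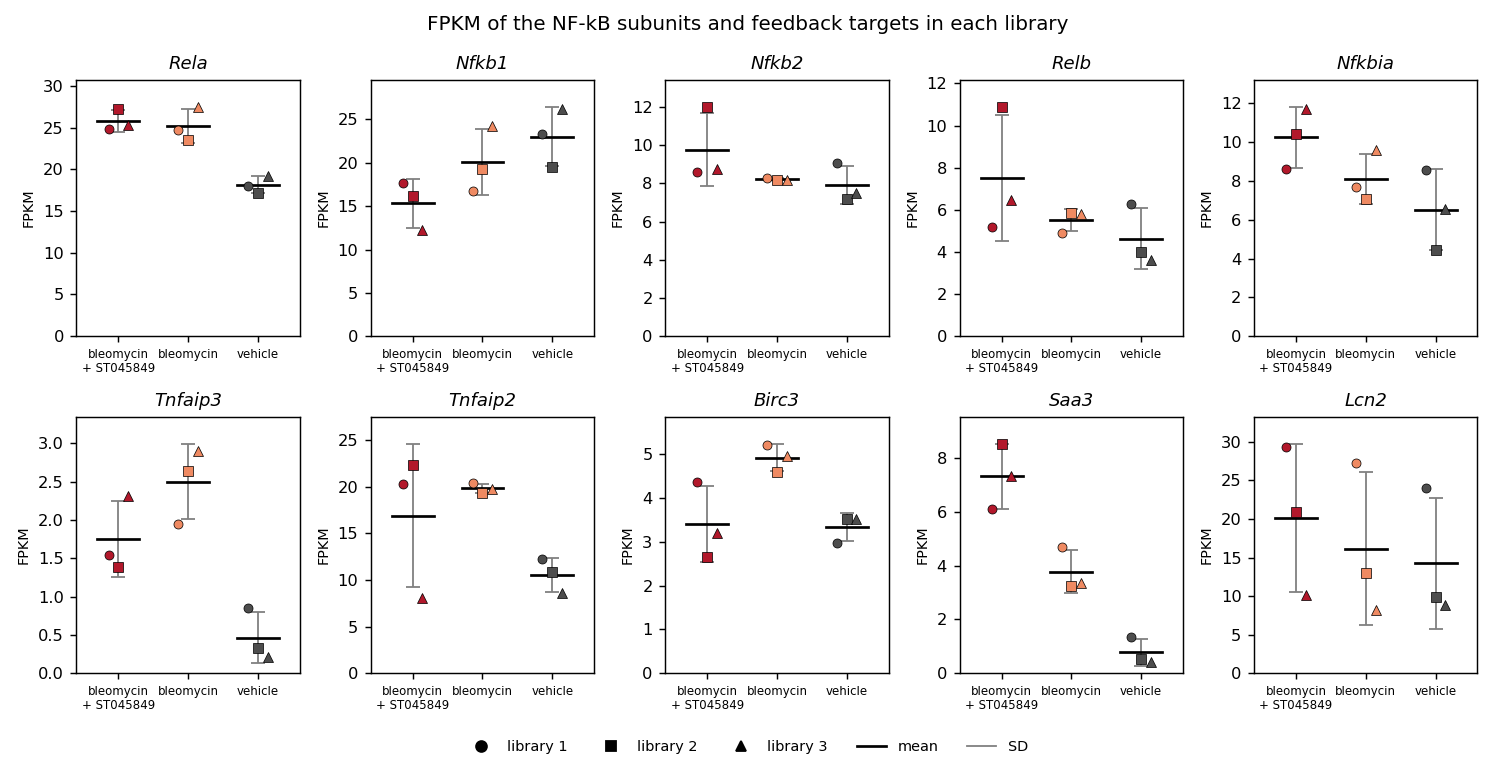
FPKM of the 10 genes (y axis, from 0) in each library by group (x axis, bleomycin plus ST045849, bleomycin, vehicle), with the mean as a black line and the SD as a grey bar (n = 3). Saa3 and Tnfaip3 are lowest in the vehicle libraries, and library 1 has the highest Lcn2 level of every group.

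Rela encodes p65, the subunit that carries the main activation domain. Its level (chr19:5637483-5648130, plus strand) was 24.8, 27.2 and 25.3 FPKM with bleomycin plus ST045849, 24.6, 23.5 and 27.4 FPKM with bleomycin, and 18.0, 17.2 and 19.2 FPKM with vehicle. All 6 bleomycin-treated libraries lay above all 3 vehicle libraries, and those of the 2 bleomycin groups overlapped. The log2 change was 0.45 ± 0.17 (SE) for bleomycin against vehicle (limma adjusted p = 0.175) and 0.48 ± 0.17 for bleomycin plus ST045849 against vehicle (adjusted p = 0.084), and neither passed. The last was 0.26 under median-of-ratios scaling, 0.24 as TPM and 0.15 once the trend with gene length was removed. With ST045849 against bleomycin alone it was 0.03 ± 0.17, with a 95% interval of -0.33 to 0.40.

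Nfkb1 encodes p105, the precursor of p50, the usual partner of p65. Its level (chr3:135584655-135691547, minus strand) was 17.7, 16.2 and 12.2 FPKM with bleomycin plus ST045849, 16.8, 19.3 and 24.3 FPKM with bleomycin, and 23.3, 19.5 and 26.3 FPKM with vehicle. The ST045849 libraries were all below the vehicle libraries, while the bleomycin libraries overlapped with both. The log2 change was -0.19 ± 0.22 for bleomycin against vehicle (limma adjusted p = 0.748). It was -0.37 ± 0.22 for ST045849 against bleomycin alone (adjusted p = 0.298) and -0.56 ± 0.22 for bleomycin plus ST045849 against vehicle (adjusted p = 0.11). The last became -0.78 with an adjusted p of 0.0461 under median-of-ratios scaling, and -0.27 with an adjusted p of 0.475 once the trend with gene length was removed.

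Nfkb2 and Relb encode p100, the precursor of p52, and RelB, the pair of the non-canonical branch. Nfkb2 (chr19:46304320-46312385, plus strand) had 8.57, 12.0 and 8.73 FPKM with bleomycin plus ST045849, 8.27, 8.20 and 8.15 FPKM with bleomycin, and 9.06, 7.20 and 7.49 FPKM with vehicle. The bleomycin libraries were nearly equal, and ST045849 library 2 was the highest of the 9. Of its exon bases 18.1% also lie in genes of the opposite strand (Psd and AC114539.1), and whether counting used strand is not given, so its level is uncertain. Relb (chr7:19606217-19629438, minus strand) had 5.18, 10.9 and 6.47 FPKM with bleomycin plus ST045849, 4.92, 5.83 and 5.81 FPKM with bleomycin, and 6.28, 4.01 and 3.61 FPKM with vehicle. Its groups overlapped in every comparison, and ST045849 library 2 was again the highest. The log2 changes of both genes ranged from 0.05 ± 0.19 (Nfkb2, bleomycin against vehicle) to 0.57 ± 0.26 (Relb, bleomycin plus ST045849 against vehicle, limma adjusted p = 0.167). Without ST045849 library 2 the last value was 0.30, with an adjusted p of 0.439, and it was 0.37 under median-of-ratios scaling and 0.33 with the length trend removed.

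The summed level of the subunit transcripts overlapped between the groups, while the shares of Rela and Nfkb1 in that sum did not overlap between bleomycin-treated and vehicle libraries. Rela, Nfkb1, Nfkb2, Relb and Rel together summed to 59.0 ± 6.86 FPKM (SD, n = 3) with bleomycin plus ST045849, 60.1 ± 5.92 FPKM with bleomycin and 54.6 ± 5.11 FPKM with vehicle. Rela made up 43.5, 40.9 and 47.5% of that sum with bleomycin plus ST045849, 44.0, 40.9 and 41.0% with bleomycin, and 31.4, 35.3 and 33.3% with vehicle. All 6 bleomycin-treated libraries were above the vehicle libraries. Nfkb1 made up 30.9, 24.4 and 22.9% with bleomycin plus ST045849, 30.0, 33.6 and 36.3% with bleomycin, and 40.6, 40.0 and 45.5% with vehicle. The ratio of Nfkb1 to Rela was accordingly 0.711, 0.596 and 0.483 with bleomycin plus ST045849, 0.681, 0.821 and 0.884 with bleomycin, and 1.29, 1.13 and 1.37 with vehicle. The ratio stood above 1 in every vehicle library and below 1 in every bleomycin-treated library, and the 2 bleomycin groups overlapped. A ratio of 2 genes in 1 library does not change with that library's scaling, but Nfkb1 has 12061 exon bases against 3072 for Rela, so it does follow a trend with gene length. With that trend removed, the log2 changes for bleomycin against vehicle were 0.32 for Rela and -0.34 for Nfkb1, from 0.45 and -0.19. For bleomycin plus ST045849 against vehicle they were 0.15 and -0.27, from 0.48 and -0.56. The ratio is given as a description, with no test, and it shows unequal change and not which gene changed.

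**Figure D2:**
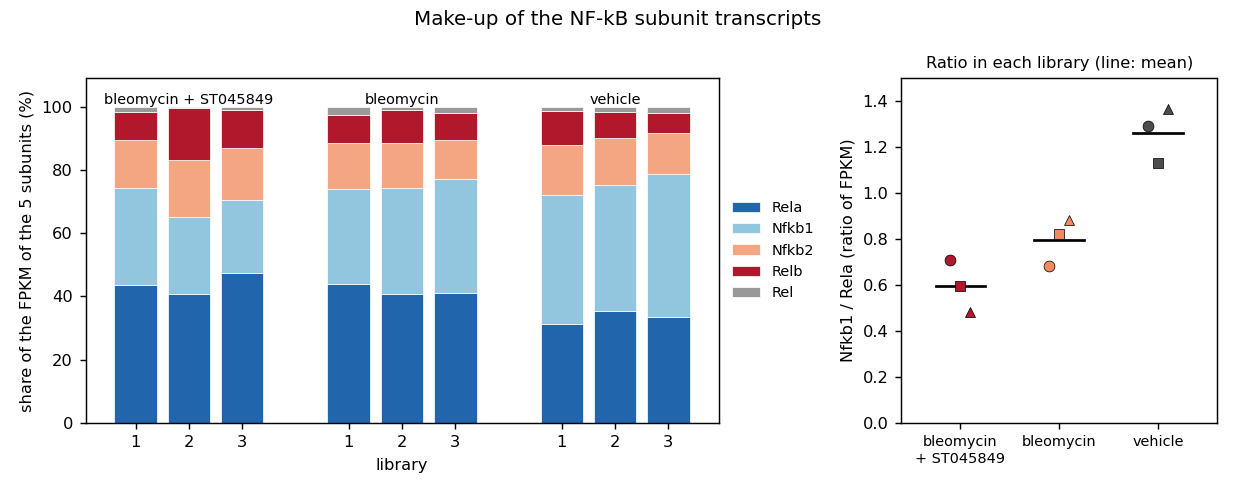
Left, share of each subunit gene (stacked bars, %) in the summed FPKM of the 5 subunits, for the 3 libraries (x axis) of bleomycin plus ST045849, bleomycin and vehicle. Right, the Nfkb1 to Rela ratio of FPKM in each library (points, marked by library number as in the plot of FPKM by library) with the group mean (line), which is above 1 with vehicle and below 1 in the 6 bleomycin-treated libraries.

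Nfkbia encodes IkBα, the inhibitor that NF-kB resynthesises first. Its level (chr12:55489410-55492647, minus strand) was 8.61, 10.4 and 11.7 FPKM with bleomycin plus ST045849, 7.67, 7.08 and 9.57 FPKM with bleomycin, and 8.59, 4.44 and 6.55 FPKM with vehicle. The ST045849 libraries were all above the vehicle libraries, by a margin of 8.61 against 8.59 FPKM between the nearest, and they overlapped with bleomycin alone. The log2 change was 0.30 ± 0.23 for bleomycin against vehicle (limma adjusted p = 0.592), 0.30 ± 0.23 for ST045849 against bleomycin alone (adjusted p = 0.41) and 0.61 ± 0.23 for bleomycin plus ST045849 against vehicle (adjusted p = 0.11). The first was 0.18 under median-of-ratios scaling and 0.089 to 0.50 without one library, lowest without vehicle library 2. The second was 0.052 as TPM and -0.10 once the trend with gene length was removed. The last was 0.80 without vehicle library 1 (adjusted p = 0.046), 0.39 without vehicle library 2 (adjusted p = 0.373), 0.40 under median-of-ratios scaling and 0.11 with the length trend removed (adjusted p = 0.735).

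Tnfaip3 encodes A20, a ubiquitin-editing enzyme that shuts down signalling from TNF and Toll-like receptors to IKK. Its level (chr10:19000910-19015657, minus strand) was 1.55, 1.38 and 2.32 FPKM with bleomycin plus ST045849, 1.95, 2.64 and 2.90 FPKM with bleomycin, and 0.849, 0.335 and 0.212 FPKM with vehicle. Every bleomycin-treated library was above every vehicle library, and the 2 bleomycin groups overlapped. Tnfaip3 rose with bleomycin against vehicle by 1.27 ± 0.21 on the log2(FPKM + 1) scale (limma adjusted p = 0.00769), with means of 2.50 FPKM in bleomycin libraries and 0.465 FPKM in vehicle libraries, a 5.37-fold ratio. With bleomycin plus ST045849 against vehicle it rose by 0.92 ± 0.21 (adjusted p = 0.0239), a 3.76-fold ratio of means. Against bleomycin alone the change with ST045849 was -0.35 ± 0.21, with a 95% interval of -0.82 to 0.11 (adjusted p = 0.307). The gene reached 1 FPKM in none of the vehicle libraries, so it passed the filter through the bleomycin-treated libraries. With a pseudocount of 0.1 the changes against vehicle were 2.35 with bleomycin and 1.84 with bleomycin plus ST045849, and both were called.

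The rise of Tnfaip3 with bleomycin was called when any of the 9 libraries was left out, with a highest adjusted p of 0.0466 without vehicle library 2. With no filter it had a limma adjusted p of 0.0423. The rise with bleomycin plus ST045849 was called in 6 of the 9 such fits. It missed without ST045849 library 3 (adjusted p = 0.0802), vehicle library 2 (adjusted p = 0.108) or vehicle library 3 (adjusted p = 0.112), and when no filter was applied (adjusted p = 0.0882).

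Birc3 encodes cIAP2, a ubiquitin ligase of the TNF receptor complex that limits cell death. Its level (chr9:7848699-7873186, minus strand) was 4.37, 2.66 and 3.19 FPKM with bleomycin plus ST045849, 5.21, 4.60 and 4.95 FPKM with bleomycin, and 2.97, 3.52 and 3.51 FPKM with vehicle. The bleomycin libraries were the 3 highest of the 9, and the ST045849 libraries overlapped with vehicle. The log2 change was 0.45 ± 0.18 for bleomycin against vehicle (limma adjusted p = 0.228), -0.44 ± 0.18 for ST045849 against bleomycin alone (adjusted p = 0.21) and 0.0084 ± 0.18 for bleomycin plus ST045849 against vehicle (adjusted p = 0.98). The second of these passed only without ST045849 library 1, at -0.59 and an adjusted p of 0.0472. The adjacent paralog Birc2 lies 11635 bases away, and how reads shared by the 2 genes were counted is not given.

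Tnfaip2 encodes a TNF-inducible protein that promotes membrane nanotubes. Its level (chr12:111442469-111455018, plus strand) was 20.2, 22.3 and 8.12 FPKM with bleomycin plus ST045849, 20.4, 19.3 and 19.7 FPKM with bleomycin, and 12.2, 10.9 and 8.61 FPKM with vehicle. ST045849 library 3 was the lowest of the 9, and the other 5 bleomycin-treated libraries were above every vehicle library. The log2 change of 0.86 ± 0.32 for bleomycin against vehicle did not pass (limma adjusted p = 0.168). It passed at 0.028 without ST045849 library 3, which is in neither group but shares the estimate of the spread. It also passed, at 0.0202, when the 2 groups were fitted alone. Under median-of-ratios scaling it was 0.73 and did not pass (adjusted p = 0.294). For bleomycin plus ST045849 against vehicle the change was 0.53 ± 0.32 (adjusted p = 0.269), 0.96 without ST045849 library 3 (adjusted p = 0.0293), 0.35 and 0.28 without ST045849 libraries 1 and 2, 0.31 under median-of-ratios scaling and 0.30 as TPM. Against bleomycin alone it was -0.33 ± 0.32, and 0.097 without that library.

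Saa3 encodes an acute-phase serum amyloid A that is made outside the liver in the mouse and is induced by NF-kB together with C/EBP factors. Its level (chr7:46711998-46715700, minus strand) was 6.12, 8.51 and 7.33 FPKM with bleomycin plus ST045849, 4.71, 3.26 and 3.36 FPKM with bleomycin, and 1.35, 0.548 and 0.435 FPKM with vehicle. The 3 groups lay apart, with ST045849 on top and vehicle at the bottom. Saa3 rose with bleomycin against vehicle by 1.45 ± 0.23 (limma adjusted p = 0.00593), a 4.86-fold ratio of the mean of 3.78 FPKM with bleomycin to that of 0.778 FPKM with vehicle. It rose with bleomycin plus ST045849 against vehicle by 2.25 ± 0.23 (adjusted p = 0.000987), a 9.40-fold ratio and place 17 by adjusted p among the genes that passed the filter. Both calls held in all 9 fits that left out a library, with highest adjusted p of 0.038 and 0.0077. With a pseudocount of 0.1 the change with bleomycin was 2.27. Among the vehicle libraries only library 1 reached 1 FPKM, so Saa3 also passed the filter through bleomycin-treated libraries. The fits that left out a library used the same filtered genes. With no filter the limma adjusted p against vehicle was 0.0304 with bleomycin and 0.0103 with bleomycin plus ST045849. Its relatives Saa1 and Saa2 stayed at or below 0.223 FPKM in every library.

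For ST045849 against bleomycin alone, Saa3 changed by 0.80 ± 0.23, with a 95% interval of 0.30 to 1.31 (limma adjusted p = 0.203). Within same-numbered libraries the difference was 0.32, 1.16 and 0.93. The libraries of these 2 groups did not overlap for Saa3, so any matching of them gives higher values with ST045849. With these 2 groups fitted alone and the replicate number as a block, the adjusted p was 0.0269, in a fit that called 19.3% of all genes. The pairing behind that block was taken from these same data and not from the labels. The adjusted p was 0.0365 without ST045849 library 1, where 17.9% of all genes passed. It was 0.203 with the block in the fit of all 9 libraries, and 0.116, with a change of 0.54, when the length trend was removed before the blocked fit.

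Lcn2 encodes lipocalin 2, an iron-carrier-binding protein and a classical NF-kB target of inflamed cartilage. Its level (chr2:32384633-32388252, minus strand) was 29.3, 20.9 and 10.2 FPKM with bleomycin plus ST045849, 27.3, 13.0 and 8.19 FPKM with bleomycin, and 24.0, 9.91 and 8.84 FPKM with vehicle. Library 1 was the highest in each group, and the groups overlapped throughout. The SE of 0.49 was the largest of the 10 genes, and the log2 changes were 0.15 for bleomycin against vehicle, 0.34 for ST045849 against bleomycin alone and 0.49 for bleomycin plus ST045849 against vehicle (limma adjusted p = 0.93, 0.663 and 0.509). The 95% interval of the first was -0.93 to 1.22. The last was 0.17 to 0.91 without one library (lowest without ST045849 library 1, highest without vehicle library 1), 0.27 under median-of-ratios scaling, 0.26 as TPM and 0.099 with the length trend removed. With the 2 bleomycin groups fitted alone and the replicate number as a block, the change of 0.34 had an SE of 0.19 (limma adjusted p = 0.207). It was 0.081 in that fit with the length trend removed.

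**Figure D3:**
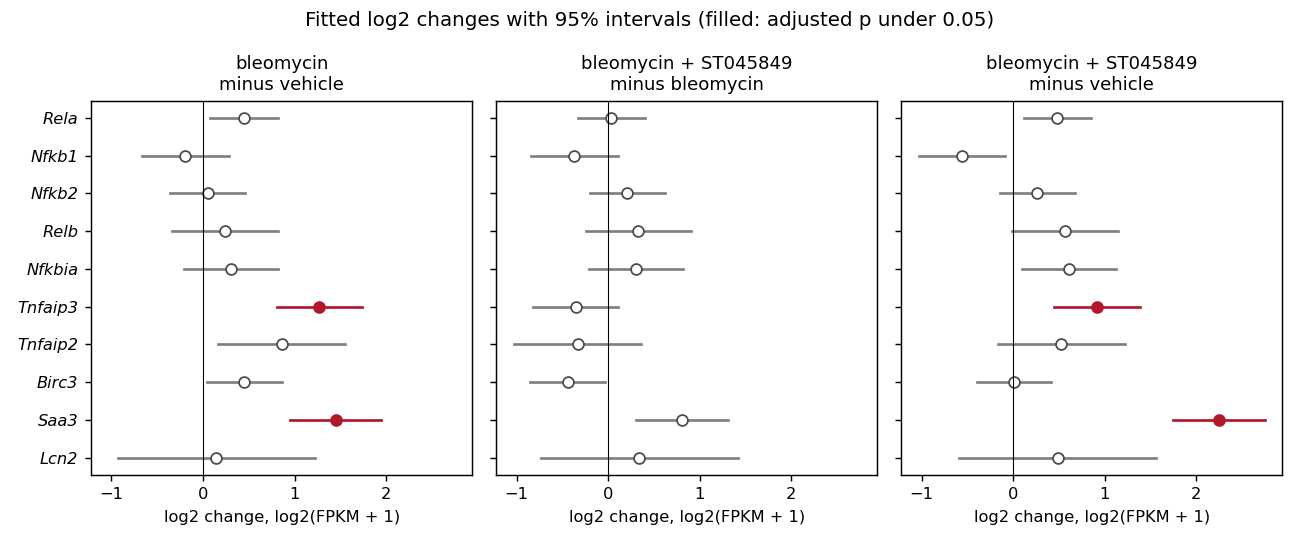
Fitted log2 change on the log2(FPKM + 1) scale (x axis) with its 95% interval (bars) for the 10 genes (rows) in the 3 comparisons, filled red where the limma adjusted p is under 0.05. Tnfaip3 and Saa3 are filled in both comparisons with vehicle, and no gene is filled for ST045849 against bleomycin alone.

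The order of the levels placed Tnfaip3 last in every group. Rela was first with bleomycin plus ST045849, at a mean of 25.8 FPKM, and its range did not overlap with that of Nfkb1, while Lcn2 and Tnfaip2, next in order, spanned 10.2 to 29.3 and 8.12 to 22.3 FPKM. With bleomycin Rela was also first, at 25.2 FPKM, followed by Nfkb1 at 20.1 and Tnfaip2 at 19.8 FPKM, and the ranges of Rela and Nfkb1 overlapped. With vehicle Nfkb1 was first, at 23.0 FPKM, and its range of 19.5 to 26.3 FPKM lay above that of Rela, 17.2 to 19.2 FPKM. Nfkb2 and Nfkbia were neighbours whose ranges overlapped in all 3 groups. Saa3 was eighth of the 10 with bleomycin plus ST045849, at 7.32 FPKM, and ninth with bleomycin and with vehicle.

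Of 76 other genes of the pathway, in 8 lists, 60 were tested. With bleomycin against vehicle 4 rose and none fell, where 4.2% of all genes passed as higher. With ST045849 against bleomycin none passed, as held for all 12441 tested genes. With bleomycin plus ST045849 against vehicle 7 rose and none fell, where 8.11% of all genes passed as higher (limma). Nfkbie, Lif and Ccl5 were below 1 FPKM in every vehicle library and so passed the filter through bleomycin-treated libraries. The called genes Ccl2 and Hp reached 1 FPKM only in library 1 of vehicle, so they too needed bleomycin-treated libraries to pass it. The counts are therefore given as a description. Changes of the pathway genes are given without an alternative scaling. Under median-of-ratios scaling the calls as higher over all genes for bleomycin plus ST045849 against vehicle were 495 in place of 1009. The median log2 change of the 60 genes was 0.16, -0.11 and 0.12 in these comparisons, beside 0.099, 0.062 and 0.19 for all genes. No member of the lists of other subunits and IkB proteins (5 tested), IKK and upstream kinases (10), adaptors (9) or other negative regulators (8) passed in any comparison. The ligand list had 1 tested member, Tnfsf11 (RANKL), which did not pass, and the inducers Tnf, Il1a and Il1b were listed at 0 in all 9 libraries.

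Bcl3 encodes an atypical IkB protein that works with p50 and p52 dimers in the nucleus, and it had the highest mean of its list over the 9 libraries, although Nfkbib was higher with bleomycin plus ST045849, at 18.4 against 15.5 FPKM. It had 15.6, 15.4 and 15.5 FPKM with bleomycin plus ST045849, 24.9, 15.8 and 18.5 FPKM with bleomycin, and 33.4, 23.7 and 24.2 FPKM with vehicle. The ST045849 libraries were below every library of the other groups. The change for bleomycin plus ST045849 against vehicle was -0.75 ± 0.21 (limma adjusted p = 0.0504), and it did not pass. Tab2, an adaptor of the kinase TAK1, had log2 changes of -0.38 for bleomycin against vehicle, -0.48 for ST045849 against bleomycin alone and -0.86 for bleomycin plus ST045849 against vehicle, none called. Irak1, a kinase of the IL-1 receptor, had 0.49, -0.68 and -0.20 in the same comparisons, none called. Tax1bp1, an adaptor of A20 and the most abundant of the other negative regulators, had 0.10, -0.12 and -0.02, none called.

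Among 8 tested receptors only Tnfrsf1a, the main TNF receptor, passed, and only for bleomycin plus ST045849 against vehicle. Over all tested genes 8.11% passed as higher there. The level of Tnfrsf1a was 98.3, 124 and 102 FPKM with bleomycin plus ST045849, 79.0, 76.5 and 85.1 FPKM with bleomycin, and 74.0, 51.8 and 61.2 FPKM with vehicle. The 3 groups lay apart in that order, and the change against vehicle was 0.79 ± 0.20 (limma adjusted p = 0.0343). For ST045849 against bleomycin alone it was 0.42 ± 0.20 (adjusted p = 0.233).

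Of 17 other inducible targets 12 were tested, and 3 rose with bleomycin against vehicle (Icam1, Lif and Ccl5), of which Lif and Ccl5 entered the test through bleomycin-treated libraries. Over all tested genes 4.2% passed as higher in that comparison, and 8.11% with bleomycin plus ST045849 against vehicle. Icam1, an adhesion molecule for leukocytes, had 63.3, 51.3 and 39.4 FPKM with bleomycin plus ST045849, 58.6, 53.1 and 45.1 FPKM with bleomycin, and 27.1, 19.7 and 16.3 FPKM with vehicle. It rose by 1.30 ± 0.24 with bleomycin (limma adjusted p = 0.0141) and by 1.25 ± 0.24 with bleomycin plus ST045849 (adjusted p = 0.012), both against vehicle, and its change between the bleomycin groups was -0.04 ± 0.24. The cytokine gene Lif, at 0.244, 0.171 and 0.147 FPKM in the vehicle libraries, rose against vehicle by 0.79 ± 0.17 with bleomycin (adjusted p = 0.0275) and by 0.67 ± 0.17 with bleomycin plus ST045849 (adjusted p = 0.0339). The chemokine gene Ccl5 rose by 1.37 ± 0.31 with bleomycin (adjusted p = 0.0307) and by 1.29 ± 0.31 with bleomycin plus ST045849 (adjusted p = 0.0265). Ccl5 was listed at 0 in 2 vehicle libraries and at 0.0419 FPKM in the other, so both changes depend on the pseudocount. The fourth gene that rose with bleomycin plus ST045849 against vehicle was the chemokine gene Ccl2, with 0.95 ± 0.26 (adjusted p = 0.0445), named after its values were seen. Il6, the cytokine gene often used to follow the pathway, was at or below 0.0995 FPKM in every library and was not tested.

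Of 10 acute-phase genes and C/EBP factors 7 were tested. Serpina3n, a secreted protease inhibitor, had 470, 529 and 291 FPKM with bleomycin plus ST045849, 466, 490 and 364 FPKM with bleomycin, and 190, 222 and 182 FPKM with vehicle. All bleomycin-treated libraries were above the vehicle libraries. It rose by 1.14 ± 0.26 with bleomycin (limma adjusted p = 0.0345) and by 1.07 ± 0.26 with bleomycin plus ST045849 (adjusted p = 0.0301), both against vehicle. Hp, the gene of haptoglobin, which binds free haemoglobin, rose with bleomycin plus ST045849 against vehicle by 1.19 ± 0.34 (adjusted p = 0.0494). For ST045849 against bleomycin alone none of the 12441 tested genes passed, and so none of these lists. The median changes were -0.06 for the 12 inducible targets and -0.07 for the 7 acute-phase genes, beside 0.062 for all genes.

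**Figure D4:**
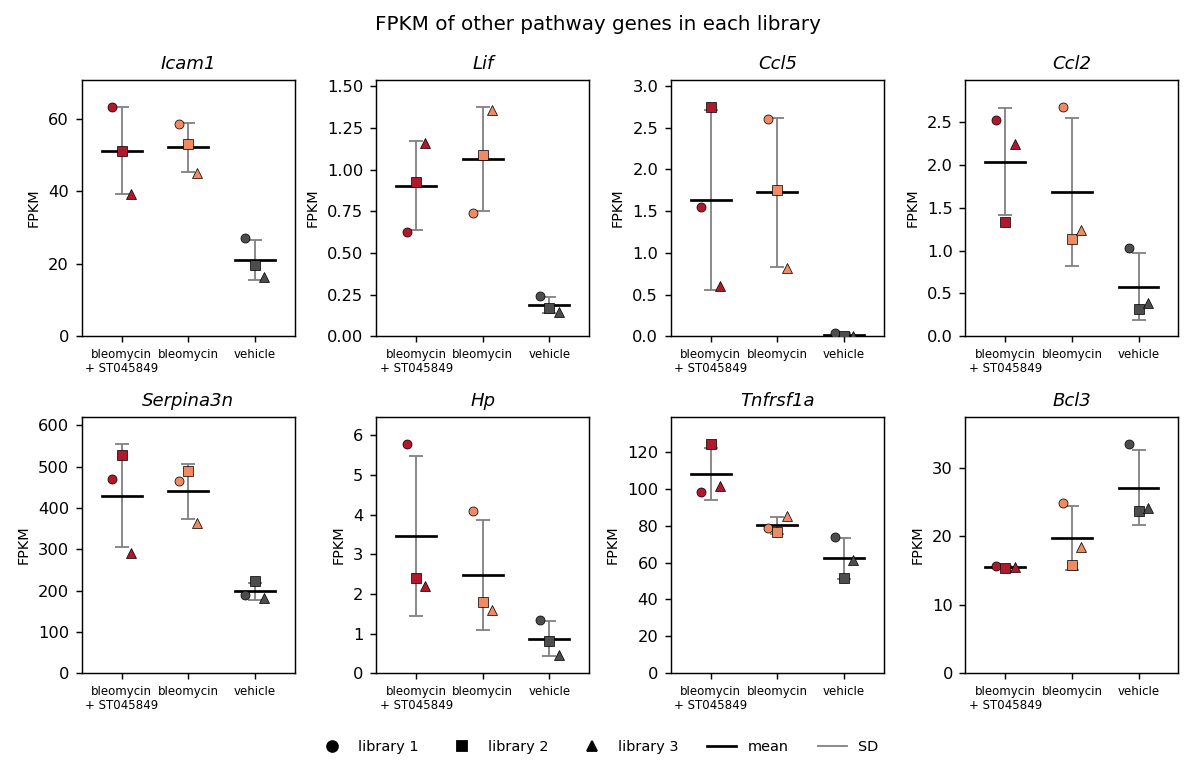
FPKM (y axes, from 0) of 8 other pathway genes in each library by group (x axis), with the mean (black line) and SD (grey bar, n = 3). Icam1, Lif, Ccl5 and Serpina3n are lowest in the vehicle libraries, while Bcl3 is lowest in the ST045849 libraries.

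Markers of other cells moved with the same comparisons. Of 11 macrophage markers 3 were tested, Cd68, Lyz2 and Cd14, and all 3 rose with bleomycin (limma adjusted p = 0.029, 0.0152 and 0.0385) and with bleomycin plus ST045849 (adjusted p = 0.0133, 0.00259 and 0.0146), both against vehicle. Among all tested genes 4.2% passed as higher with bleomycin and 8.11% with bleomycin plus ST045849. Cd68 was below 1 FPKM in vehicle library 2 and Lyz2 in vehicle library 3, so both needed bleomycin-treated libraries to enter the test. The macrophage list summed to 11.9 to 18 FPKM with bleomycin plus ST045849, 10.9 to 12.6 FPKM with bleomycin and 3.05 to 5.75 FPKM with vehicle. Of its 8 untested members, 3 had a value of 0 in each of the 9 libraries (Tyrobp, C1qb and C1qc). Ptprc, Adgre1, Itgam and C1qa were at 0 in the vehicle libraries and between 0 and 0.144 FPKM in the bleomycin-treated ones, and Csf1r averaged 0.0736 FPKM with bleomycin plus ST045849, 0.0609 FPKM with bleomycin and 0.0300 FPKM with vehicle. The neutrophil markers summed to 0.355 to 0.622 FPKM with bleomycin plus ST045849, 0.345 to 0.447 FPKM with bleomycin and 0 to 0.0369 FPKM with vehicle, with Elane listed at 0 in every library. The endothelial markers summed to 0.213 to 0.543 FPKM with bleomycin plus ST045849, 0.221 to 0.293 FPKM with bleomycin and 0.0163 to 0.0718 FPKM with vehicle. In both lists the bleomycin-treated libraries were all above the vehicle libraries. The bleomycin-treated libraries also had more genes above 0 FPKM, 21265 to 23218, against 20355 to 20893 in the vehicle libraries. The part of that general difference in these low sums was not tested. Of 7 fibroblast or synovial markers, all tested, only Thy1 passed, and it rose by 2.00 ± 0.37 with bleomycin and by 1.49 ± 0.37 with bleomycin plus ST045849 (adjusted p = 0.0126 and 0.0311). Against vehicle, 7 of the 7 had a change above 0 with bleomycin (median 0.84) and 5 with bleomycin plus ST045849 (median 0.06). For ST045849 against bleomycin alone none did (median -0.66). That list summed to 1566 to 2928 FPKM with bleomycin plus ST045849, 2717 to 3795 FPKM with bleomycin and 1765 to 2423 FPKM with vehicle. Of the chondrocyte markers none passed with bleomycin, and 3 of 9 fell with bleomycin plus ST045849 against vehicle, among them the aggrecan gene Acan with a log2 change of -1.66 ± 0.28 (adjusted p = 0.00657) and the matrilin gene Matn3 with -1.80 ± 0.34 (adjusted p = 0.0097). Over all 12441 tested genes, 84 passed as lower with bleomycin and 216 with bleomycin plus ST045849, both against vehicle. The part of these cell types in the changes of Saa3, Tnfaip3 and the other targets was not tested.

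The genes whose pattern across the 9 libraries was most like that of Tnfaip3, by the mean absolute difference of centred log2 values, were Gask1b (0.149), H2-Q6 (0.163) and Ccng2 (0.166), where the median tested gene had 0.516. Ccng2, a cyclin gene, had mean levels of 14.6 FPKM with bleomycin plus ST045849, 15.9 FPKM with bleomycin and 6.94 FPKM with vehicle. For Saa3 they were Tmem37 (0.144), Pltp (0.175) and Cox6b2 (0.199), where the median was 0.80. Pltp, the phospholipid transfer protein gene, had mean levels of 39.5 FPKM with bleomycin plus ST045849, 28.0 FPKM with bleomycin and 10.8 FPKM with vehicle. These likenesses describe 9 libraries in 3 groups and carry no test.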

How the data were processed

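RNA of 9 libraries was sequenced from poly(A) libraries made with a stranded kit, per the labels' protocols. The submitters' processing notes name Trimmomatic, STAR and the build GRCm38. The sources used here give no versions, counting program, annotation or use of strand. The authors deposited FPKM per gene, and nothing else was used. Positions and exon lengths came from GENCODE vM21 (GRCm38), which held 55190 of the 55450 identifiers.

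The filter required 1 FPKM or more in 3 or more libraries, which 12441 genes passed. Values of log2(FPKM + 1) from all 9 libraries entered a single linear model (limma 3.58.1, R 4.3.3, variance trend, 6 residual and 4.95 prior degrees of freedom). Two-sided p-values were adjusted by Benjamini-Hochberg over all tested genes, with calls at an adjusted p under 0.05. The scale understates changes of low genes. Fold ratios are of mean FPKM. The fit was tested on simulated data. The 10 genes, the 8 pathway lists, the marker lists and the tests were chosen with earlier results of these data known. From each pathway list and comparison at most 2 risen and 2 fallen genes were named, taken in order of adjusted p. Where none passed, the most abundant member was named.

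FPKM holds no counts. Fragment numbers were estimated from the steps between low values, of which 22.4 to 24.6% came within 0.02 of a whole step where chance gives 4%. Counts were therefore not recovered, and depth is an estimate. FPKM sums were 382247 to 483953 with bleomycin plus ST045849, 356573 to 370089 with bleomycin and 340303 to 406644 with vehicle.

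Replicate numbers were checked for pairing by correlating deviations from the group means. Between bleomycin plus ST045849 and bleomycin, equal numbers gave 0.466, 0.481 and 0.5, each over 0.1, so that comparison is also given with the block. The pairing comes from the data and not from the labels. Unequal numbers reached 0.568 between other groups.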

Additional observations from a re-analysis of the deposited data

How the results depend on the processing

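The alternatives were a pseudocount of 0.1, no filter (30298 genes), median-of-ratios scaling, a replicate block, the 2 groups alone with and without the block, removal of each library's length trend (loess, span 0.5, 12437 genes) with and without the block, and leaving out each library. Added after seeing the data were TPM and, for bleomycin against vehicle, leaving out ST045849 libraries 2 and 3. Of 550 values for the 10 genes, 506 kept direction and side of the threshold, 11 passed newly, 7 no longer passed and 26 changed sign. No value with a changed sign had passed. Libraries were left out for the 10 genes and the counts over all genes, and not for the pathway lists. The causes were not tested.

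Bleomycin against vehicle had 607 calls over all genes, 1024 with the 2 groups alone, 1048 with length removal and the block, 1025 without ST045849 libraries 2 and 3, and 184 to 829 without one library, while 2 of the 10 genes passed in each leave-out of one library but for the additional call of Tnfaip2 without ST045849 library 3, and 3 passed without libraries 2 and 3. ST045849 against bleomycin had 0 calls, 1 with no filter, 2 with length removal, 2403 with the 2 groups alone and the replicate block (1 of the 10 genes), 170 with length removal and that block, and 0 to 2225 without one library (0 to 2 of the 10). Bleomycin plus ST045849 against vehicle had 1225 calls, 651 with no filter, 710 as TPM, 621 with the 2 groups alone, 199 with the replicate block there, 782 with length removal, 239 with length removal and the block, and 286 to 3060 without one library (1 to 3 of the 10); 1 of the 10 genes passed with no filter and in both fits of the 2 groups with the block. The replicate block in the fit of all 9 libraries gave 733, 0 and 1386 calls in the 3 comparisons and changed no call among the 10 genes. Equal numbers correlated at -0.071, -0.026 and 0.546 between bleomycin and vehicle and at -0.519, -0.279 and 0.424 between the ST045849 group and vehicle, and they are not taken as pairs there. In the blocked fits of 2 groups, Tnfaip3 had a limma adjusted p of 0.0544 for bleomycin against vehicle after length removal. For bleomycin plus ST045849 against vehicle it had 0.104, or 0.122 after length removal. Tnfaip2 passed in such fits for bleomycin against vehicle, at 0.0427, or 0.04 after length removal.

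Signs changed as follows. For bleomycin against vehicle, Nfkb2 was -0.077 under median-of-ratios, -0.098 with length removal with or without the block and -0.0052 to 0.14 without one library (lowest without vehicle library 2). Lcn2 was -0.29 to 0.57 without one library, with -0.29 without bleomycin library 1, and -0.029 and -0.10 without vehicle libraries 2 and 3. For ST045849 against bleomycin, length removal with or without the block gave -0.10 for Nfkbia, 0.062 for Nfkb1 and -0.17 for Rela; TPM gave -0.048 for Nfkb2 and -0.24 for Rela; median-of-ratios gave -0.051 for Rela. Without one library, Rela was -0.013 to 0.096 (-0.0036 without ST045849 library 2), Tnfaip2 was -0.58 to 0.097 (0.097 without ST045849 library 3) and Lcn2 was -0.031 to 0.78 (-0.031 without bleomycin library 3). For bleomycin plus ST045849 against vehicle, Birc3 was -0.17 under median-of-ratios, -0.22 as TPM, -0.12 with length removal with or without the block, and -0.14 to 0.13 without one library (-0.14 without ST045849 library 1 and -0.054 without vehicle library 1).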

Other observations

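Library number 1 was the highest of its group in all 3 groups for 12 of the 60 tested pathway genes, number 2 for 1 and number 3 for 5, together 30%. The 12 were 6 of the 12 tested inducible targets (Cxcl5, Ccl2, Ccl7, Icam1, Vcam1 and Irf1) and Hp, Ptx3, C3, Bcl3, Map3k14 and Tnfrsf1b. Among all 12441 tested genes this held for 488 genes with number 1, 221 with number 2 and 1797 with number 3, together 20.1%. Icam1 thus had 63.3 FPKM in library 1 of bleomycin plus ST045849, 58.6 in library 1 of bleomycin and 27.1 in library 1 of vehicle, and Hp had 5.78 FPKM in library 1 of bleomycin plus ST045849, 4.08 in that of bleomycin and 1.34 in that of vehicle. Of the 10 subunit and target genes, Lcn2 alone had its highest level at the same number in every group. The genes were noticed after their values were seen.

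The ratio of Nfkb2 to Nfkb1 transcripts was 0.486, 0.739 and 0.715 with bleomycin plus ST045849, 0.493, 0.426 and 0.336 with bleomycin, and 0.389, 0.370 and 0.285 with vehicle. The ST045849 libraries were all above the vehicle libraries and overlapped with bleomycin alone. Nfkbia relative to the sum of Rela, Nfkb1, Nfkb2 and Relb was 0.153, 0.157 and 0.222 with bleomycin plus ST045849, 0.141, 0.125 and 0.146 with bleomycin, and 0.152, 0.0927 and 0.116 with vehicle. The ST045849 libraries were the 3 highest, by 0.153 against 0.152 at the nearest. Both ratios were chosen after values were seen and have no test. Exon lengths are 1610 bases for Nfkbia, 4584 for Nfkb2 and 12061 for Nfkb1, so both ratios follow a trend with gene length. For bleomycin plus ST045849 against vehicle, removing that trend took the log2 change of Nfkbia from 0.61 to 0.11. It took that of Nfkb1 from -0.56 to -0.27 and that of Nfkb2 from 0.26 to 0.099. Nfkb2 also shares 18.1% of its exon bases with genes of the opposite strand.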
